A study of Mus musculus with 4 samples.

Results

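Nanog, Sox2 and Pou5f1 are 3 of the 24026 genes listed for the hybrid embryonic stem cell (ESC) line F123, and were taken by their gene symbols. Together their products form the core transcription factor circuit of pluripotent cells. NANOG is a homeodomain protein, SOX2 is an HMG-box protein of the SRY-related family, and Pou5f1 encodes the POU-domain factor OCT4. SOX2 and OCT4 bind side by side at composite DNA elements, also in the regulatory regions of their own genes and of Nanog, and loss of the circuit is known to lead stem cells out of pluripotency.

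F123-ESCs are male mouse cells from a cross of S129/Jae and Cast, so each autosomal gene has an S129 copy from the mother and a CAST copy from the father, told apart by single nucleotide polymorphisms (SNPs). The 4 libraries, replicates 1 to 4, were all untreated polyA RNA of this 1 line with the genotype S129/CAST. The line was kept on inactivated mouse embryonic fibroblasts. Before harvest it was passaged repeatedly on gelatin without feeder cells to remove them, and it was collected after about 48 h. Each library gave one value for S129 and one for CAST, in reads scaled to gene length and to the total reads of that allele (RPKM), and only reads that cover a SNP between the strains can be assigned. There was therefore a single condition, and the comparison that the hybrid line allows is that of the alleles within a library. Nothing in the labels says whether the libraries came from separate cultures, so p-values measure the spread between these 4 libraries, which may be technical. The totals behind the values ran from 16716721 to 28772351 assigned reads per allele, lowest in replicate 4 for both alleles.

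The label of the cells was checked against markers. Dppa5a (7111 RPKM), Zfp42 (512 RPKM), Tdgf1 (488 RPKM), Utf1 (106 RPKM) and Esrrb (63.1 RPKM), all genes known for high activity in ESCs, were high beside the members, as the mean of both alleles. Lineage markers were mixed. Of the trophectoderm list, the regulator Cdx2 stood at 0.39 RPKM, but the keratin gene Krt18 at 121 RPKM and Tfap2c at 29.1 RPKM. Of the primitive endoderm list, the regulator Gata6 stood at 1.40 RPKM, but the adaptor gene Dab2 at 44.2 RPKM and the collagen gene Col4a1 at 26.9 RPKM. Of the neuroectoderm list, Neurod1 and Olig2 were listed at 0, but the intermediate filament gene Nes stood at 76.2 RPKM. Markers of the feeder fibroblasts were mixed too. Of these, 5 of 8 reached 1 RPKM, none was at 0, and their summed level ran from 179 to 224 RPKM over the libraries. Of that sum, Col1a2, a chain of type I collagen, gave 166 ± 17.5 RPKM (SD, n = 4). Postn stood at 15.4 RPKM, Col3a1 at 11.4, Col1a1 at 5.68, Thy1 at 1.57, Dcn at 0.66 and S100a4 at 0.34 RPKM. Lum, a collagen-binding proteoglycan, was near 0 at 0.046 RPKM. Reads of Col1a2 came from both alleles, with means of 180 RPKM for S129 and 151 RPKM for CAST. The part of feeder RNA in the values of the members was not tested.

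Nanog lies on chromosome 6 (mm10, chr6:122707489-122714633, plus strand, ENSMUSG00000012396). Its promoter is shown because it holds the composite element at which SOX2 and OCT4 bind, which ties the members together. The reference stretch (RefSeq, GRCm38.p6, plus strand, chr6:122707389-122707452) has in capitals this element, which on the minus strand is the SOX core CATTGT, 1 further base and the octamer core ATGCAAA.
Nanog: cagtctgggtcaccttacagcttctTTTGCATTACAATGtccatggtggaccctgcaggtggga
The capitals begin 75 bases before the start site. Of 32851 RefSeq windows of the 250 bases before a start site, searched on both strands, 2 held this element (0.00609%), and both were windows of Nanog. Only exact matches were counted, apart from the 1 free base. The element was chosen after the sequences were seen, so this share is a description and not a test. By itself the octamer core was in 4.12% of windows and the SOX core in 10.7%, in both cases counting those inside the composite element.

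The S129 copy of Nanog read 99.0, 116, 116 and 85.3 RPKM in replicates 1 to 4, from 5685, 5935, 5695 and 2963 reads. The CAST copy read 61.7, 71.0, 71.6 and 55.3 RPKM, from 3427, 3489, 3373 and 1845 reads. All 4 S129 values lay above all 4 CAST values, and replicate 4 was the lowest of both alleles. The means were 104 ± 14.9 RPKM for S129 and 64.9 ± 7.84 RPKM for CAST (SD, n = 4). The S129 copy was thus 1.60-fold higher, a within-library difference of 0.68 on the log2(RPKM + 0.1) scale (SE 0.032, limma adjusted p = 0.000143, S129 higher in 4 of 4 libraries). Over all 13341 genes tested, 31.4% were called higher on S129 at an adjusted p under 0.05, 35.5% were higher on S129 in all 4 libraries, and in 23.3% the lowest S129 value exceeded the highest CAST value. These shares include the X chromosome, of which the cells hold only an S129 copy, and among 12869 autosomal genes 28.9% were called for S129 and 32.5% for CAST. A call for S129 is therefore common in these cells. The difference of Nanog was above that of 85.6% of the genes tested, with a median over all of them of -0.0034.

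Sox2 is a single-exon gene on chromosome 3 (chr3:34650405-34652461, plus strand, ENSMUSG00000074637). Its reference stretch (RefSeq, GRCm38.p6, plus strand, chr3:34649871-34649927) is shown for comparison with that of Nanog, with the octamer core ATGCAAA in capitals.
Sox2: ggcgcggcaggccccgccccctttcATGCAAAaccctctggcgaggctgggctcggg
The octamer begins 99 bases before the RefSeq start site, which lies upstream of the start of the gene in the annotation used for the lengths. No composite element was in this window.

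From the S129 copy, Sox2 read 155, 163, 167 and 127 RPKM in replicates 1 to 4, from 9180, 8591, 8409 and 4562 reads. From the CAST copy it read 99.3, 104, 103 and 80.4 RPKM, from 5690, 5283, 5022 and 2765 reads. The alleles did not overlap, and replicate 4 was again the lowest of both. The means were 153 ± 17.6 RPKM for S129 and 96.8 ± 11.2 RPKM for CAST (SD, n = 4), so that S129 was 1.58-fold higher. On the log2 scale the difference was 0.66 (SE 0.030, limma adjusted p = 0.000124, S129 higher in 4 of 4 libraries), above that of 85.2% of the genes tested. As given for Nanog, 31.4% of the genes tested were called for S129, and 23.3% had no overlap in that direction.

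Pou5f1 lies on chromosome 17 (chr17:35506018-35510772, plus strand, ENSMUSG00000024406). Its stretch (RefSeq, GRCm38.p6, plus strand, chr17:35505974-35506029) is shown as the third promoter of the circuit, with the nuclear receptor half-site AGGTCA in capitals, a common motif found in 14% of windows.
Pou5f1: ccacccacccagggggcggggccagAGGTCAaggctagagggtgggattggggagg
The half-site begins 33 bases before the RefSeq start site and follows a GC box, GGGCGG, found in 32.7% of windows. Neither the octamer core nor the composite element was in this window. All stretches are of the reference genome and not of either allele, and the SNPs between S129 and CAST were not used here.

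The S129 copy of Pou5f1 read 28.1, 28.2, 28.8 and 23.0 RPKM in replicates 1 to 4, from 1100, 985, 962 and 545 reads. The CAST copy read 32.3, 35.5, 36.3 and 24.2 RPKM, from 1225, 1191, 1168 and 551 reads. Here CAST was the higher allele in every library, although the CAST value of replicate 4 lay below the S129 values of replicates 1 to 3, so the alleles overlapped. The means were 27.0 ± 2.69 RPKM for S129 and 32.1 ± 5.53 RPKM for CAST (SD, n = 4). CAST was 1.18-fold higher, a log2 difference S129 minus CAST of -0.24 (SE 0.059, limma adjusted p = 0.0242, CAST higher in 4 of 4 libraries). Over all genes tested, 31.3% were called higher on CAST, 36.5% were higher on CAST in all 4 libraries and 22.2% had no overlap in that direction. The call for Pou5f1 was lost when any of replicates 1 to 3 was left out, with an adjusted p of 0.0703 without replicate 1, 0.0888 without replicate 2, 0.0877 without replicate 3 and 0.0140 without replicate 4. It was also lost when the alleles were compared without the pairing by library (adjusted p = 0.202), while Nanog and Sox2 were called in each of these fits.

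**Figure D1:**
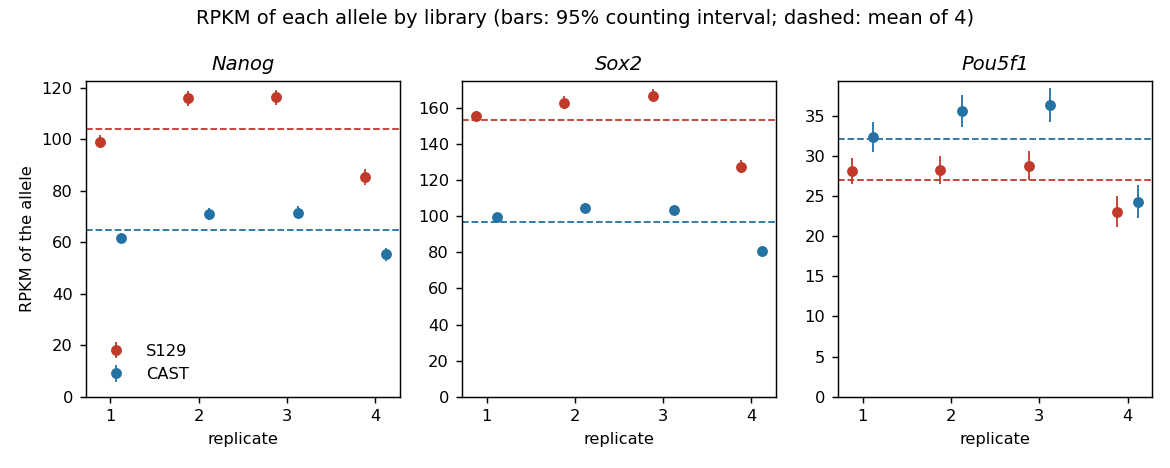
RPKM of the S129 (red) and CAST (blue) copies of Nanog, Sox2 and Pou5f1 in each of 4 libraries, with bars for the 95% counting interval and dashed lines for the mean of 4 libraries. S129 lies above CAST in every library for Nanog and Sox2, whereas CAST lies above S129 for Pou5f1, by the least in replicate 4.

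The share of assigned reads that came from S129 was alike in Nanog and Sox2. For Nanog it was 62.4%, 63.0%, 62.8% and 61.6% in replicates 1 to 4, a mean of 62.4% ± 0.60 (SD, n = 4). For Sox2 it was 61.7%, 61.9%, 62.6% and 62.3%, a mean of 62.1% ± 0.39. The ranges of these 2 genes overlapped. The share of Pou5f1 was 47.3%, 45.3%, 45.2% and 49.7%, a mean of 46.9% ± 2.15, and lay below every value of the other members. In replicate 4 the 95% binomial interval of the Pou5f1 share (exact Clopper-Pearson) ran from 46.7% to 52.7% at 1096 reads, which includes an equal share of both alleles. Such intervals cover counting error only, and the share is of reads before division by the total of each allele.

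Within the libraries, the log2 differences between the alleles ran from 0.62 to 0.71 in Nanog, from 0.64 to 0.69 in Sox2 and from -0.33 to -0.074 in Pou5f1. Their SD over the libraries was 0.037, 0.022 and 0.12, in the same order. Sox2 and Nanog differed from each other in this measure by -0.019 ± 0.045 (SD, n = 4), with Sox2 larger in 1 of 4 libraries. Pou5f1 lay below Nanog by a mean difference of -0.91 ± 0.16 and below Sox2 by -0.89 ± 0.13, in 4 of 4 libraries for both.

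**Figure D2:**
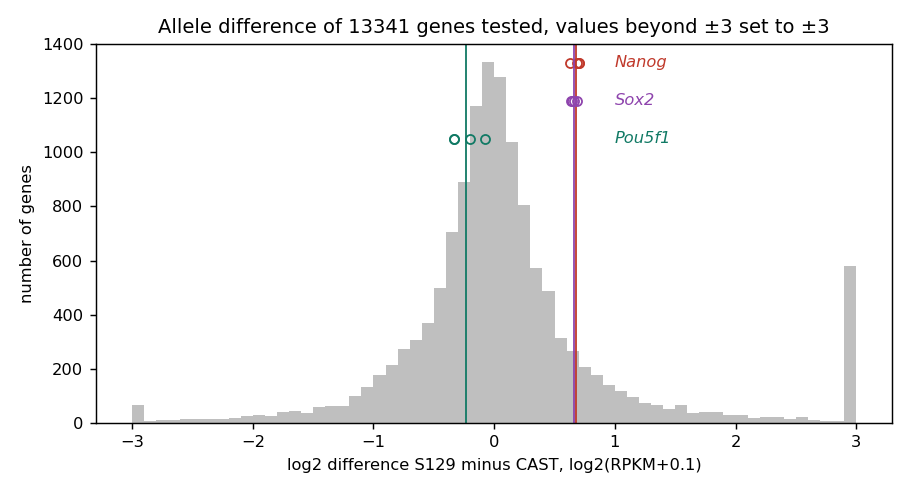
Histogram of the log2 difference S129 minus CAST, on the log2(RPKM + 0.1) scale, over the 13341 genes tested, with values beyond ±3 placed at ±3. Vertical lines mark the means of Nanog (0.68), Sox2 (0.66) and Pou5f1 (-0.24), and open circles mark their 4 libraries.

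As the mean of both alleles, Sox2 was the highest of the members, at 127, 134, 135 and 104 RPKM in replicates 1 to 4. Nanog read 80.4, 93.5, 93.9 and 70.3 RPKM, and Pou5f1 read 30.2, 31.8, 32.5 and 23.6 RPKM. The order Sox2, Nanog, Pou5f1 was the same in 4 of 4 libraries and no ranges overlapped. The means were 125 ± 14.4 RPKM for Sox2, 84.5 ± 11.4 RPKM for Nanog and 29.5 ± 4.08 RPKM for Pou5f1 (SD, n = 4). Of all listed genes, 96.7% were lower than Sox2, 95.1% were lower than Nanog and 87.7% were lower than Pou5f1.

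On the log2(RPKM + 0.1) scale, Sox2 exceeded Nanog by 0.57 ± 0.068 (SD, n = 4), or 1.48-fold. The level of Pou5f1 against Nanog was -1.51 ± 0.072, or 2.86-fold lower, and against Sox2 it was -2.08 ± 0.038, or 4.23-fold lower. For each of the 3 pairs, 2 of the 16 sign patterns of a two-sided exact sign-flip permutation test were as extreme as the data, which is the fewest that 4 libraries allow, so no pair could pass a threshold of 0.05, with or without adjustment over the pairs. RPKM is per length of gene, but a gene with fewer SNPs gives fewer assigned reads at the same RNA level, so this order is one of assigned reads and not of RNA. The length also bears on Pou5f1. Its values rest on a transcript of 1362 bases, and with all 2248 annotated exon bases its level would be 17.9 RPKM.

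Reads of similar or overlapping genes could add to the members. Of the stretches of 50 bases in the Pou5f1 transcript, 209 of 1313 (15.9%) also occur in other annotated transcripts, those of Gm19553, which lies antisense to Pou5f1 and shares 317 of its exon bases, and of Gm5712. For Nanog, 103 of 1946 stretches (5.29%) were shared, among others with its pseudogene Nanog-ps1. For Sox2, 0 of 2008 were shared. Reads were pairs of 150 bases, longer than these stretches, so the shares are not shares of reads. Only annotated transcripts were searched. Gm19553, Gm5712 and Nanog-ps1 were not analysed here. The library kit keeps the strand, but whether the counting used it is not given in the sources used here, so reads of Pou5f1 and of its antisense partner may not be told apart.

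All members were lowest in replicate 4, which was also the least deeply sequenced. Relative to the mean of replicates 1 to 3, replicate 4 was at 0.788 for Nanog, 0.788 for Sox2 and 0.749 for Pou5f1. The median gene was at 0.913 in the same comparison, with quartiles of 0.841 and 1.02. On the log2 scale 12%, 12% and 7.0% of the genes tested were lower still in replicate 4 than Nanog, Sox2 and Pou5f1. The SD of the log2 level over the 4 libraries was 0.20 in Nanog, 0.18 in Sox2 and 0.21 in Pou5f1, against a median of 0.14 over the genes tested. The summed level of the feeder markers in replicate 4 was 190 RPKM, inside its range over the other libraries. Of the ESC markers named above, Zfp42, Tdgf1 and Esrrb were also lowest in replicate 4, at 447, 414 and 55.7 RPKM. Dppa5a was highest there, at 8159 RPKM, and Utf1, at 107 RPKM, lay inside its range over the other libraries. The part of depth in the lower level of the members was not tested. In bulk RNA fewer cells of a type and less RNA per cell cannot be told apart. Without replicate 4 the levels were 89.2 RPKM for Nanog, 132 RPKM for Sox2 and 31.5 RPKM for Pou5f1.

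**Figure D3:**
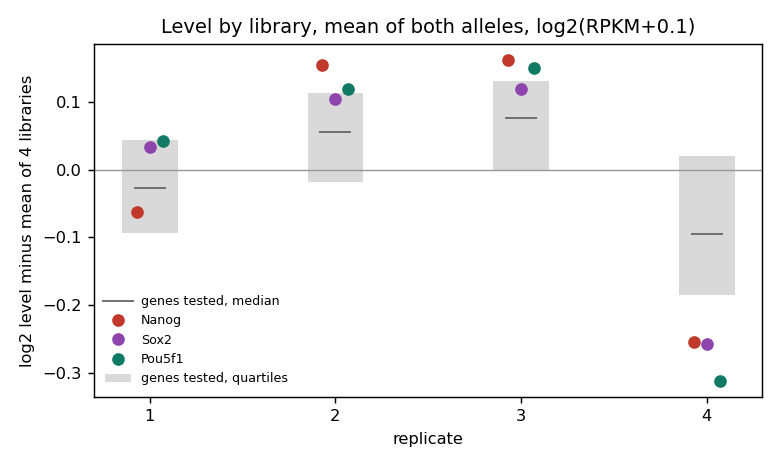
Level in each library, as the mean of both alleles on the log2(RPKM + 0.1) scale, minus the mean of the 4 libraries. Points are the members, and grey bars with a dash give the quartiles and the median of the genes tested. The members lie at -0.25 (Nanog), -0.26 (Sox2) and -0.31 (Pou5f1) in replicate 4, below the lower quartile of -0.18.

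Genes near each member were compared to place its difference in its region, with distances taken between the lower coordinates of the genes. Of 11 genes with at least 1 RPKM that start within 500 kb of Nanog, 7 were called higher on S129 and 4 higher on CAST, so all were called, against 62.7% of all genes tested. The nearest of these was Slc2a3, which encodes the glucose transporter GLUT3, at 20.3 kb from Nanog. Its S129 copy read 115 ± 10.9 RPKM and its CAST copy 39.6 ± 4.06 RPKM (SD, n = 4), a log2 difference of 1.53 (SE 0.032, adjusted p = 1.26e-05) that was larger than that of Nanog. On the other side, Dppa3, a maternal factor that protects DNA methylation, differed by 0.11 (SE 0.035, adjusted p = 0.0486), or -0.082 with the median within 10 Mb taken out, and Gdf3, a ligand of the TGF-beta family, by 0.30 (SE 0.029, adjusted p = 0.00111), or 0.12 with that median taken out. The call of Dppa3 was also lost when any single library was left out, with adjusted p from 0.0834 to 0.150. The largest differences of the region were for CAST, in Clec4a1 (-4.54, SE 0.12), a lectin receptor gene at 2.83 RPKM, and in Mfap5 (-2.80, SE 0.065), a microfibril gene at 110 RPKM, although with a pseudocount of 1 RPKM Clec4a1 stood at -2.51. Over the 160 genes tested within 10 Mb the median was 0.18, and 86.3% lay below Nanog. With that regional median taken out of each library, an alternative chosen after seeing the data, the difference of Nanog was 0.49 and kept its call (adjusted p = 0.000512).

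Sox2 stood in a region with few genes. Only Gm3143, which starts 49.2 kb from it, and Gm38509, 122 kb away, reached 1 RPKM within 500 kb. Both were called higher on S129, beside 31.4% of all genes tested. Gm3143 differed by 1.13 (SE 0.14) at a mean of 8.96 RPKM, and Gm38509 by 3.74 (SE 0.084) at 1.69 RPKM, or 1.87 with a pseudocount of 1 RPKM. Sox2ot, the long noncoding gene on the same strand whose intron holds Sox2, read 1.65 ± 0.16 RPKM with a difference of 0.37 (SE 0.14, adjusted p = 0.0863), or 0.51 without replicate 4 (adjusted p = 0.0300), and shares 0 exon bases with Sox2. The nearest protein-coding genes at 1 RPKM, chosen after their values were seen, were Dnajc19 and Fxr1 on one side, at differences of -0.049 (adjusted p = 0.286) and 0.15 (adjusted p = 0.0501), and Atp11b and Dcun1d1 on the other, at -0.059 (adjusted p = 0.185) and -0.0044 (adjusted p = 0.958). The side of the threshold on which Fxr1 falls depended on the setting, with adjusted p = 0.0243 at the same autosomal total and 0.186 with the median within 10 Mb taken out. The median over the 61 genes within 10 Mb was 0.041, and 82.0% lay below Sox2. The median of the whole chromosome 3 was -0.74, and taking it out gave 1.38 for Sox2, but taking out the median within 10 Mb gave 0.61.

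Pou5f1 lies in the gene-dense major histocompatibility region, where 35 genes with at least 1 RPKM start within 500 kb. Of these, 4 were called higher on S129 and 11 higher on CAST, beside shares of 31.4% and 31.3% over all genes tested. Tcf19, a transcription factor gene that starts 6.72 kb from Pou5f1, had a difference of -0.24 (SE 0.050, adjusted p = 0.0147), close to that of Pou5f1, and lost its call without replicate 1 (adjusted p = 0.0584) or replicate 3 (adjusted p = 0.0577). Cchcr1, which encodes a coiled-coil protein, stood at -0.14 (SE 0.090, adjusted p = 0.249), and was called without replicate 1, at -0.23 (adjusted p = 0.0287). Larger differences were seen further away, with -1.99 (SE 0.16) in the helicase gene Dhx16, or -1.19 with a pseudocount of 1 RPKM, and 1.41 (SE 0.095) in the leukocyte gene Lst1. The median over the 240 genes within 10 Mb was -0.047, and 29.2% lay below Pou5f1. With that median taken out, Pou5f1 stood at -0.19 (adjusted p = 0.0445).

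**Figure D4:**
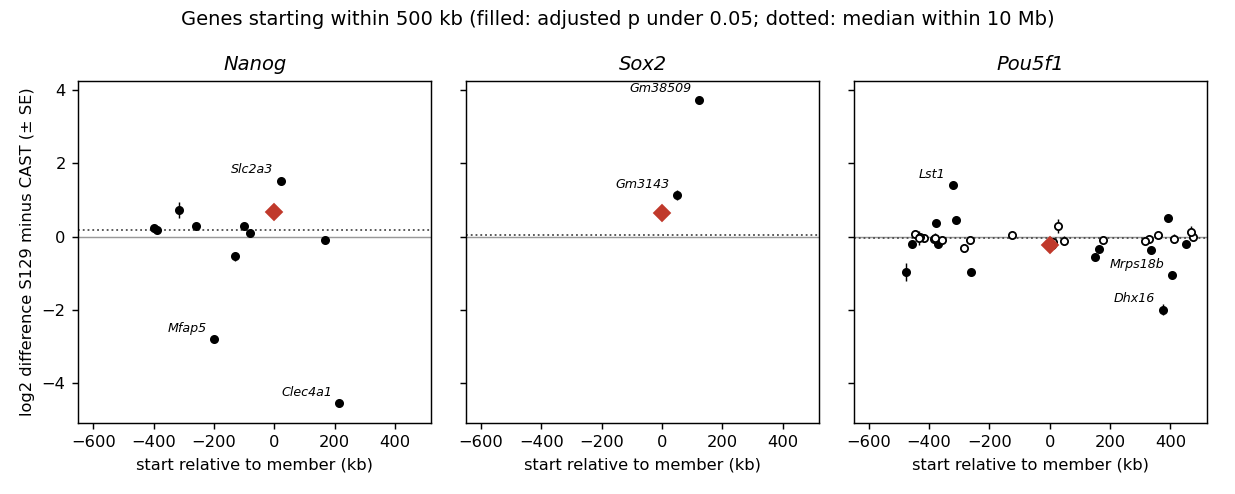
Log2 difference S129 minus CAST, with its SE, of genes with at least 1 RPKM that start within 500 kb of Nanog, Sox2 or Pou5f1, by distance in kb from the start of the member (red diamond). Filled points have an adjusted p under 0.05, and the dotted line is the median of genes within 10 Mb, at 0.18, 0.041 and -0.047.

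By the root mean square difference over the 8 centered log2 values, among 11945 genes with at least 1 RPKM, the genes most like Nanog were Liph, Hic2, Cpe, Hk2 and Xpc, at distances of 0.029 to 0.049. Sox2 was in the 18th place of this order, at 0.063, and Pou5f1 in the 7122nd, at 0.47. The genes most like Sox2 were Zfp566, Nectin3, Khdrbs1, Cdc5l and Uba2, at 0.027 to 0.048, with Nanog in the 27th place. Those most like Pou5f1 were Cnot2, Zfp146, Ctdspl2, Slc30a9 and Nae1, at 0.033 to 0.055. This measure takes in both the allele difference and the spread over libraries, and all genes share the same 4 libraries. With the median of the genes within 10 Mb taken out, the differences of Liph, Hic2 and Nectin3 turned in sign. Those of the other genes named as most like Nanog or Sox2 did not turn.

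Relatives of the members in the same protein families were mostly low. Of the other SOX genes, 4 of 18 reached 1 RPKM, led by Sox15, an ESC-expressed family member at 38.4 ± 3.97 RPKM (SD, n = 4), Sox4 at 10.7 RPKM and Sox13 at 5.68 RPKM. Of 6 tested, 2 were called, against 62.7% of all genes tested, and both were higher on CAST, namely Sox4 at -0.38 (SE 0.043) and the neural gene Sox1 at -0.70 (SE 0.12), or -0.36 with a pseudocount of 1 RPKM. Of the other POU genes, 3 of 14 reached 1 RPKM, Pou2f1 at 2.71, Pou2f3 at 2.46 and Pou6f1 at 1.66 RPKM. By limma 0 of 4 POU genes tested were called, 2 had an unadjusted p under 0.05, and 1 was called with a pseudocount of 1 RPKM. The level of Pou5f1, at 29.5 RPKM, was above that of every POU relative, within the limit that RPKM here follow the SNPs of each gene.

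Factors known to act with NANOG, SOX2 and OCT4 were all measured, and 20 of 30 were called, 10 in each direction, with a median difference of -0.048. This compares with 62.7% called over all genes tested. Of the 10 called for S129, 4 lie on the X chromosome (Nr0b1, Hcfc1, Med12 and Zfx), of which a male line with an S129 mother holds only that copy. Among the 26 autosomal factors, 6 were higher on S129 and 10 on CAST. The naive factor Tfcp2l1, at 583 ± 37.6 RPKM, had the largest S129 difference of these, at 0.74 (SE 0.038), close to those of Nanog and Sox2. Prdm14, which represses differentiation genes and DNA methylation, had the largest CAST difference, at -2.44 (SE 0.036), followed by the BTB protein gene Nacc1 at -0.46 (SE 0.033), or -0.27 with the median within 10 Mb taken out. The highest of the list were the corepressor Trim28, at 1310 RPKM with a difference of -0.21 (SE 0.030), Tfcp2l1 and Zfp42.

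Genes with known enhancers bound by the circuit were also called in both directions, with a median difference of -0.024. Of 25 genes, 9 were called for S129, 11 for CAST and 5 were not called. Over all genes tested, 31.4% were called for S129 and 31.3% for CAST. Esrrb, Sall4, Zfp42 and Klf4 are also in the list of partners, and Phc1, Gdf3 and Dppa3 also lie within 500 kb of Nanog. Dppa4, a chromatin factor of pluripotent cells, and Spp1, which encodes osteopontin, had the largest S129 differences, at 0.93 (SE 0.030) and 0.83 (SE 0.043). With the median within 10 Mb taken out, Dppa4 stood at 0.17 and with the chromosome median taken out at 0.26, and it kept its call in both. Mycn and Otx2 had the largest CAST differences, at -1.01 (SE 0.032) and -0.96 (SE 0.098). The highest was Dppa5a, an RNA-binding protein gene, at 0.42 (SE 0.031). Of the 25 target genes, 16 had a promoter window. Of these, 0 held the composite element, beside 0.00609% of all windows. The octamer core was in 2, Spp1 and Zfp42, beside 4.12% of all windows, though a gene can have several windows. Only exact matches in the 250 bases before a start site were counted, so enhancers further away were not searched.

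**Figure D5:**
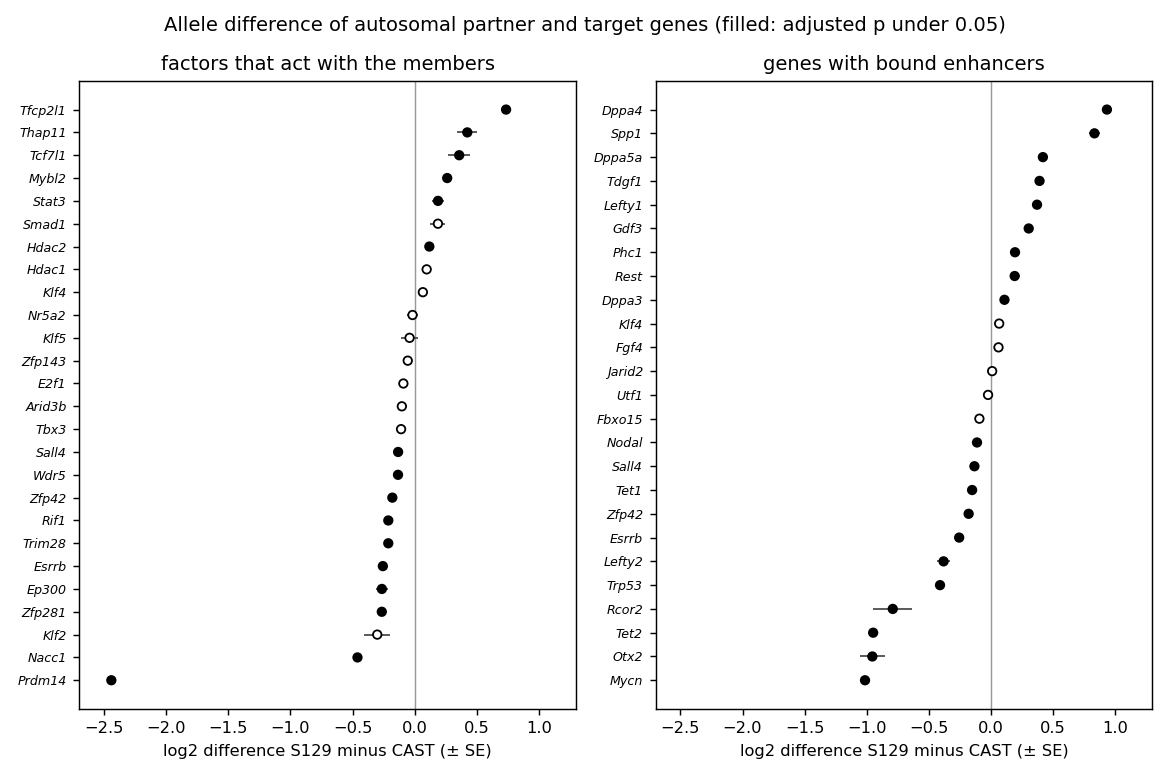
Log2 difference S129 minus CAST, with its SE, of the 26 autosomal partner factors and the 25 target genes, ordered by difference. Filled points have an adjusted p under 0.05, with 6 partners and 9 targets above 0 and 10 partners and 11 targets below 0.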

How the data were processed

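RNA-seq of 4 libraries of untreated F123-ESCs was analysed for 3 genes. Per the study's methods, paired reads of 150 bases were cleaned of ribosomal RNA, trimmed, aligned with STAR to mm10 masked at the S129 and CAST SNPs, and split by allele with SNPsplit. The deposited values are RPKM per allele and library. The study's methods define RPKM by the gene length and all mapped reads of the experiment. That the total was one for each allele was inferred from the values, as described below. The gene counter and annotation are not given in the sources used here. The authors also deposited log10 values of the averages plus 1, which were not used. In the header, the number of the S129 column of replicate 1 has a minus sign before it, which was read as a separator, and the pairing of that library rests on this reading.

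Low RPKM values move in steps of 1 read. With GENCODE M21 lengths, the totals of each allele and the reads of each gene were recovered. Of 20243 genes above 0, 94.5% were whole within 0.02 reads, plus 2e-07 of the value. A recovered read may stand for a read or a read pair. The recovery and the fit were tested on simulated data.

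The difference S129 minus CAST of log2(RPKM + 0.1) was fitted in limma 3.58.1 (R 4.3.3) as an intercept over the 4 libraries, two-sided, with Benjamini-Hochberg adjustment over the 13341 genes whose allele means sum to at least 1 RPKM. Called means an adjusted p under 0.05. The difference understates the change of low genes. The alleles were paired because both are reads of one library, and the deviations of same-numbered columns from their allele means correlated at 0.35 to 0.50 over 10362 genes. For columns of different numbers these correlations ran from -0.38 to 0.31. Levels of the members were compared by exact sign-flip tests.

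Named genes were the members, their copies and overlapping genes, the 3 highest and the 2 most different called genes in each direction of each list, genes within 500 kb, and the 5 genes most like each member. The lists were the SOX and POU families, partner factors, target genes, and markers of neuroectoderm, mesoderm and endoderm, primitive endoderm, trophectoderm and feeder fibroblasts. Members and lists were chosen with earlier results of these data known, and the motifs after the sequences were seen.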

Additional observations from a re-analysis of the deposited data

Results flagged for a closer look

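One value stood far from the others of its group. The S129 copy of Pou5f1 in replicate 4, at 22.99 RPKM, was separated from the other 3 libraries by 0.879 of the whole range of the group, above the 95% critical value of Dixon's test for 4 samples. Of 22 quantities examined in this way 1 passed, and about 1 in 20 does by chance, or 1.1 here. Replicate 4 also had the lowest CAST value of Pou5f1, at 24.2 RPKM.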

How the results depend on the processing

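Nanog and Sox2 kept their direction and their call under every alternative run, and no pair of members changed its order. The difference of Pou5f1 lost its call without the replicate block (-0.24, adjusted p = 0.202), with whole reads not divided by the allele total (-0.18, adjusted p = 0.0551, chosen after seeing the data) and without replicate 1, 2 or 3, with -0.29 to -0.20 over the libraries left out. The replicate block changed no other call of a member, but without it 9 partners and 11 targets were called, against 20 of each with it. Calls also fell over all 13341 genes tested. Without the block 3292 were called for S129 and 3133 for CAST, against 4187 and 4182 with it. With S129 alone the levels were 104 RPKM for Nanog and 153 RPKM for Sox2, and with CAST alone 64.9 and 96.8 RPKM, and with all annotated exons Pou5f1 was at 17.9 RPKM. The POU genes called were 0 as reported, 1 with a pseudocount of 1 RPKM, 2 with no filter, and 0 to 1 with a library left out. Scaling to the same autosomal total added 0.047 to the difference of each member.

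Of 1346 values of named genes under alternatives, 1147 kept direction and call, 116 lost the call, 23 gained it and 60 turned in sign, in 24 genes. Of the 60, 43 were values of genes called neither as reported nor under the alternative. The other 17 came with the median of the same chromosome or of the genes within 10 Mb taken out. With the chromosome median out, the differences that turned were 0.013 for Abhd16a, 0.66 for Atp11b, 0.71 for Dcun1d1, 0.67 for Dnajc19, -0.093 for Dppa3, 0.025 for Gnl1, 0.0014 for Ly6g6d, 0.034 for Ly6g6e, -0.0047 for Nectin3, -0.0086 for Phc1, 0.20 for Postn, 0.023 for Pou6f1, 0.080 for Tubb3 and 0.054 for Zfp42. With the 10 Mb median out, chosen after seeing the data, they were 0.019 for Abhd16a, 0.024 for Col4a1, 0.0017 for D17H6S53E, -0.082 for Dppa3, 0.031 for Gnl1, -0.079 for Hic2, -0.11 for Liph, 0.0079 for Ly6g6d, 0.040 for Ly6g6e, -0.12 for Nectin3, 0.28 for Postn, 0.026 for Pou6f1, 0.00060 for Ppp1r10, 0.089 for Tubb3 and 0.082 for Zfp42. With the autosomal median out they were 0.019 for Dcun1d1, 0.0034 for Gnl1, 0.012 for Ly6g6e and 0.011 for Pou6f1, and with the same autosomal total 0.014 for Abhd16a, 0.042 for Dcun1d1, 0.027 for Gnl1, 0.00089 for Ly6g6d, 0.036 for Ly6g6e and 0.032 for Pou6f1. With recovered reads that were left undivided, also chosen after seeing the data, they were 0.023 for Abhd16a, 0.0073 for D17H6S53E, 0.051 for Dcun1d1, 0.0060 for Dnajc19, 0.035 for Gnl1, 0.0087 for Ly6g6d, 0.044 for Ly6g6e, 0.042 for Pou6f1 and 0.0014 for Ppp1r10. With a library left out, 12 values turned, and the ranges were -0.19 to 0.0086 for Cdsn, -0.13 to 0.11 for D17H6S53E, -0.052 to 0.039 for Dcun1d1, -0.21 to 0.067 for Eomes, -0.029 to 0.075 for H2-Q4, -0.19 to 0.18 for Ly6g6d, -0.049 to 0.036 for Ly6g6e, -0.055 to 0.014 for Pou6f1, -0.19 to 0.039 for Ppp1r10, -0.020 to 0.080 for Ppp1r18 and -0.0090 to 0.25 for Prr3. The cause was not tested. Pou5f1 rested on 1096 to 2325 assigned reads per library, Nanog on 4808 to 9424 and Sox2 on 7327 to 14870.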

Other observations

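Among markers of the lineages that ESCs can enter, all 3 neuroectoderm genes tested were called higher on CAST, beside 31.3% of all genes tested. They were Nes at -0.98 (SE 0.058), Sox1 at -0.70 (SE 0.12) and Tubb3, a tubulin gene at 20.0 RPKM, at -0.15 (SE 0.041). With the median of the genes within 10 Mb taken out, Sox1 stood at -0.37 and kept its call (adjusted p = 0.0453). Nes, at -0.14 (adjusted p = 0.0771), and Tubb3, at 0.089 (adjusted p = 0.150), lost their calls in that setting. Of the mesoderm and endoderm genes 1 of 4 tested was called, T (brachyury), at 8.89 RPKM and -1.10 (SE 0.074), while Eomes was at 2.92 RPKM and Gsc at 0.85 RPKM. Of the primitive endoderm genes 2 of 5 were called, both for CAST, Dab2 at -1.14 (SE 0.040) and Col4a1 at -0.34 (SE 0.034), and Pdgfra stood at 3.31 RPKM. Of the trophectoderm genes 1 of 6 was called, Hand1, at 0.62 (SE 0.14), which lost its call without replicate 2 (adjusted p = 0.0612) or replicate 3 (adjusted p = 0.0665).

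All 6 feeder fibroblast markers tested were called, 4 for S129 and 2 for CAST, beside 62.7% of all genes tested called in either direction. Thy1 at 1.84 (SE 0.14) and Dcn at 0.41 (SE 0.095) were the largest for S129, and Col1a1 at -0.52 (SE 0.063) and Postn at -0.51 (SE 0.061) were for CAST. With a pseudocount of 1 RPKM Thy1 stood at 1.09 and Dcn at 0.18, and Dcn lost its call without replicate 2 (adjusted p = 0.0752). Col1a2, the highest of them, was at 0.25 (SE 0.032), or 0.051 and not called with the chromosome median taken out (adjusted p = 0.237), and Col3a1 was at 11.4 RPKM and 0.22 (SE 0.034). With the median of the genes within 10 Mb taken out, the sign of Tubb3, Col4a1 and Postn turned.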
